A study of Mus musculus with 11 samples.

Results

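The genes described here form the guanylin pathway of the gut and the ion transporters that govern fluid movement beside it. They are 9 gene symbols of the 31168 in the deposited count table, taken by name: the peptide genes Guca2a and Guca2b, the receptor gene Gucy2c, the kinase gene Prkg2, and the transport genes Cftr, Slc9a3, Slc26a3, Slc12a2 and Car4. RNA came from the distal ileum, the last stretch of the small intestine, of mice given dextran sodium sulfate, a polysaccharide that injures the intestinal lining. The 5 dIEC mice were H2-Ab1 fl/fl and Villin:Cre+, and the 6 WT mice were H2-Ab1 fl/fl and Villin:Cre-, so the WT mice also carried the floxed allele of H2-Ab1, a gene of MHC class II. The villin promoter drives Cre in the intestinal epithelium, which is also where the receptor and most of the transporters act. Age, sex, cage and litter remain not given in the sources used here. Each library was taken as 1 mouse. A p-value here sets a difference or a correlation against the spread between these libraries, part of which may be technical.

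Guanylin (Guca2a) and uroguanylin (Guca2b) are small peptides that epithelial cells release into the gut lumen. They bind guanylate cyclase C (Gucy2c) on the apical membrane, which makes cyclic GMP inside the cell. Cyclic GMP activates the membrane-bound kinase encoded by Prkg2, which opens the chloride and bicarbonate channel CFTR and restrains the sodium-proton exchanger encoded by Slc9a3, and the balance between secretion and absorption sets how wet the gut contents are.

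The members were chosen by gene symbol with results of the dIEC against WT comparison in view, so their CPM and fold changes between these groups are given as a description and support nothing by themselves. All 9 passed the filter on low counts that left 15911 genes. Values are counts per 1000000 (CPM) after TMM scaling, and replicates carry the library numbers of their titles. Total counts ran from 6603965 to 9681698 per library, of which cytosolic and mitochondrial ribosomal RNA took 37.0 to 57.0%, and the members had between 86 and 1219 counts in a library. Protein-coding genes other than Lars2 had 1510296 (dIEC replicate 5) to 3215574 (WT replicate 9) counts. Lars2 was left out of that sum but is not in the ribosomal share. The floxed gene H2-Ab1 had 25.8 ± 9.82 CPM in dIEC (SD, n = 5) and 82.7 ± 27.2 CPM in WT (n = 6), with every dIEC library below every WT library (two-sided exact permutation over 462 splits, p = 0.00649). WT replicate 8 stood apart from the other WT libraries. Its summed level of absorptive enterocyte markers was 12854 CPM, against 3135 to 6173 CPM in the other WT libraries and 4844 to 11860 CPM in dIEC, so the results it bears on are also given without it. In a whole piece of tissue, fewer cells of a type and less RNA per cell cannot be told apart.

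Both peptide genes lie side by side on chromosome 4 (GRCm38). Guca2b spans 119656607 to 119658954 on the minus strand and Guca2a spans 119637704 to 119639471 on the plus strand, with 17135 bases and 0 annotated genes wholly between them. Their upstream sequences are shown because both genes varied together across the libraries (r = 0.98 within the groups). The bases printed lie before the start of each gene in both RefSeq (GRCm38.p6) and GENCODE vM21, read on the strand of the gene, at chr4:119658955-119659195 for Guca2b and chr4:119637482-119637703 for Guca2a. Capitals mark the stretch closest to the consensus of the HNF1 factors, which regulate many genes of the gut epithelium: GTTAAT, 1 free base, and GTTAAT again on the other strand.
Guca2b: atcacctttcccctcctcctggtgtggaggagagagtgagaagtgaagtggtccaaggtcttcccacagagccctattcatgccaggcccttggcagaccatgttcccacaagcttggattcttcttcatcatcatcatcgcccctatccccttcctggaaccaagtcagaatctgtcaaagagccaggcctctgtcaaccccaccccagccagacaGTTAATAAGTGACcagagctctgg
Guca2a: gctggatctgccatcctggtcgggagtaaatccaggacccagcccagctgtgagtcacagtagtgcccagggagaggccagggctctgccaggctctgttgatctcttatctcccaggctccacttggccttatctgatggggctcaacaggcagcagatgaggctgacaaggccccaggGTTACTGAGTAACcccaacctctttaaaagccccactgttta
Each marked stretch differs from this consensus at 2 letters and ends 20 bases before the RefSeq start of Guca2b and 57 bases before that of Guca2a. On either strand, a stretch with at most 2 differing letters occurred in the 250 bases upstream of 1.24% of the 32851 promoters in the table. Of the 6 members with an entry, Guca2b, Guca2a and Slc26a3 had one. The motif TTTAT of the CDX factors, searched on both strands in the same windows, occurred in 37.3% of all promoters and, among the 6, in Slc26a3. Both motifs, and the allowance of 2 letters, were chosen after the 2 sequences had been read, and a match is a description of letters, not of binding.

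Uroguanylin had the largest difference of the 9 genes. Guca2b measured 78.2, 38.3, 42.8, 21.4 and 69.0 CPM in dIEC replicates 1, 3, 5, 6 and 11, against a lowest value of 13.3, a median of 16.7 and a highest of 27.7 CPM in WT. In 4 of the 5 dIEC libraries the level was above every WT library, and only dIEC replicate 6 lay within the WT range. The means were 49.9 ± 23.2 CPM in dIEC and 18.9 ± 5.74 CPM in WT (SD), a 2.64-fold difference (log2 fold change 1.40, SE 0.31).

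Guanylin, the more abundant peptide transcript, differed less. Guca2a measured 119, 78.5, 78.8, 53.7 and 113 CPM in dIEC replicates 1, 3, 5, 6 and 11, against 50.4, 59.0 and 89.7 CPM as the lowest, median and highest WT values. Only dIEC replicates 1 and 11 were above the highest WT library, and the groups overlapped. The means were 88.6 ± 27.1 CPM in dIEC and 64.1 ± 14.4 CPM in WT (log2 fold change 0.47, SE 0.20).

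Because both peptides share a receptor, their proportion was taken within each library, a value that no scaling between libraries can alter. For every 1 count of Guca2a there were 0.659, 0.488, 0.542, 0.399 and 0.609 counts of Guca2b in dIEC replicates 1, 3, 5, 6 and 11, against 0.260 to 0.340 in the 6 WT libraries. The ratio averaged 0.539 ± 0.102 in dIEC and 0.291 ± 0.0304 in WT (SD), and the groups did not overlap. In dIEC replicate 6, which had the lowest ratio of its group (0.399), Guca2a was at 53.7 CPM, also the lowest of its group. WT replicates 2, 4 and 7 had 56.5, 50.4 and 55.6 CPM of Guca2a and ratios of 0.260, 0.264 and 0.296. Whether the level of Guca2a had a part in the ratio was not tested. Set against Guca2a in this way, 3 of the 15910 other genes tested (0.0189%) had higher ratios in every dIEC library than in any WT library: Guca2b, the metallothionein gene Mt1 and Gm43745, named after their values were seen because the count is small. Lower ratios in every dIEC library were found for 0.339% of genes and for 0 members. In CPM, without this division, 0.233% of all genes were higher in every dIEC library and 0.333% lower. Guca2a itself had a higher mean in dIEC, which lowers the ratios of other genes there. It also ran with Guca2b within the groups, which narrows the spread of their ratio. These shares therefore depend on the choice of Guca2a as divisor. Since Guca2b was among the genes chosen with this contrast known, the ratio is a description too.

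**Figure D1:**
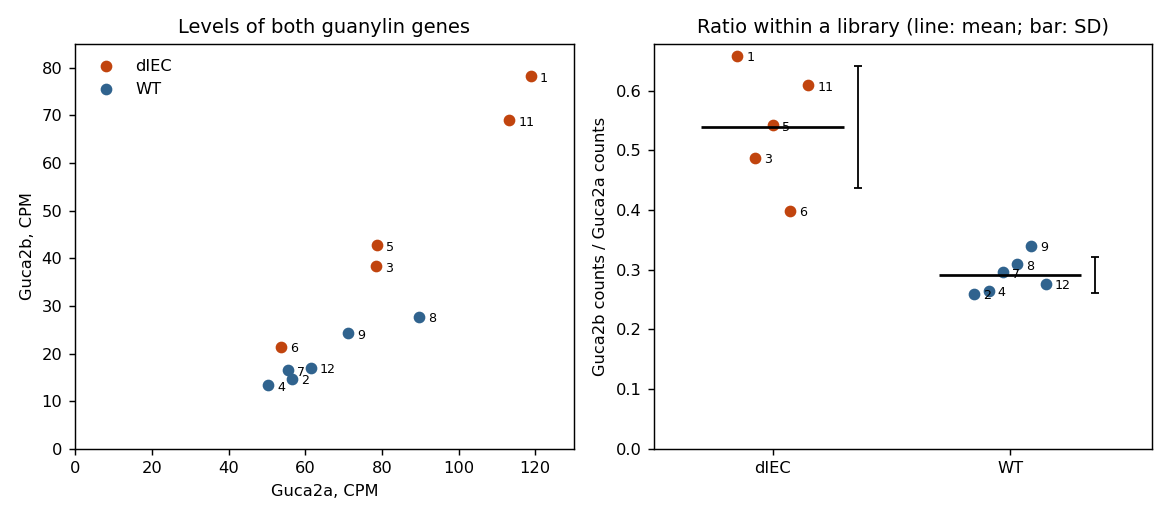
Left, Guca2b against Guca2a in CPM, 1 point per library, numbered by replicate (dIEC orange, WT blue). Right, counts of Guca2b divided by counts of Guca2a in each library, with the group mean (line) and SD (bar). The 5 dIEC ratios run from 0.399 to 0.659 and the 6 WT ratios from 0.260 to 0.340, with no overlap.

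The receptor lay on the same side as its ligands. Gucy2c (chromosome 6, 136697284 to 136781765, minus strand) measured 161, 106, 117, 97.5 and 124 CPM in dIEC replicates 1, 3, 5, 6 and 11, against 57.6, 76.6 and 122 CPM as the lowest, median and highest in WT. In WT, 5 of the 6 libraries were below every dIEC library, and the exception was WT replicate 8. The means were 121 ± 24.4 CPM in dIEC and 80.5 ± 23.8 CPM in WT (log2 fold change 0.59, SE 0.19). Relative to its receptor, guanylin was not higher: the ratio of Guca2a to Gucy2c counts averaged 0.724 ± 0.132 in dIEC and 0.812 ± 0.0794 in WT, while that of Guca2b to Gucy2c was 0.398 ± 0.130 in dIEC and 0.235 ± 0.0198 in WT. The groups overlapped in both ratios.

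Prkg2 (chromosome 5, 98929773 to 99037351, minus strand), the kinase that carries the signal from cyclic GMP to the transporters, measured 40.0, 15.6, 27.4, 14.0 and 24.3 CPM in dIEC replicates 1, 3, 5, 6 and 11, against 11.3, 15.2 and 25.1 CPM as the lowest, median and highest in WT. Replicates 1 and 5 of dIEC were above the highest WT library, and the others lay within the WT range. The log2 fold change was 0.58 (SE 0.27), and 0.32 without dIEC replicate 1.

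**Figure D2:**
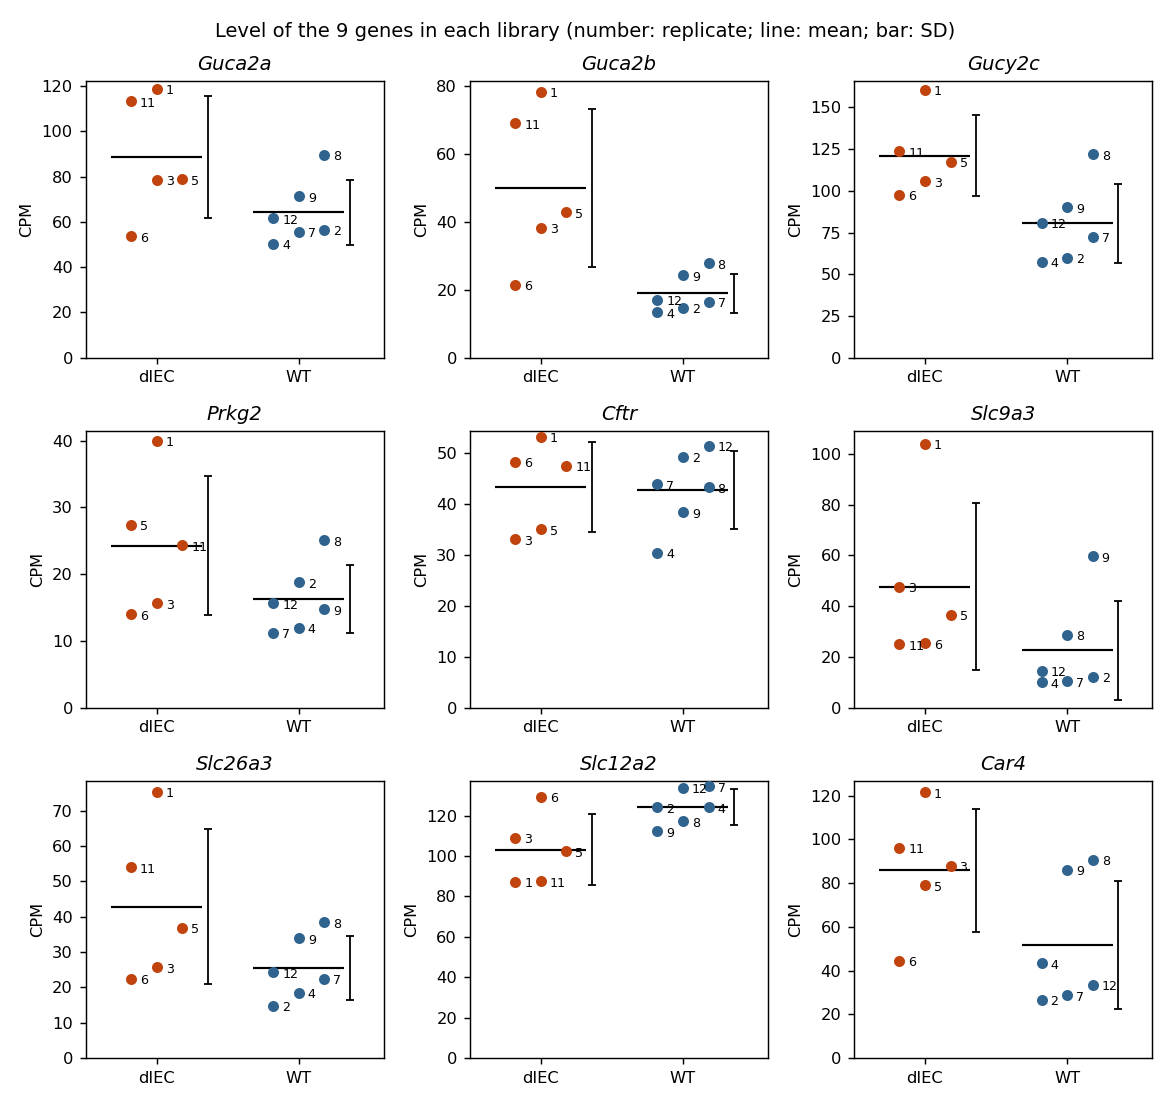
CPM of each of the 9 genes in the 5 dIEC libraries (left, orange) and the 6 WT libraries (right, blue), numbered by replicate, with the group mean (line) and SD (bar). All axes start at 0. For Guca2b 4 of the 5 dIEC points lie above every WT point, for Cftr the groups cover the same range, and for Slc12a2 4 of the 5 dIEC points lie below every WT point.

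The secretory transporters did not lie on the side of the peptides. Cftr (chromosome 6, 18170687 to 18322768, plus strand), the apical exit for chloride and bicarbonate, measured 53.2, 33.1, 35.1, 48.3 and 47.5 CPM in dIEC replicates 1, 3, 5, 6 and 11, against 30.5, 43.6 and 51.5 CPM as the lowest, median and highest in WT. The groups overlapped almost entirely, with a log2 fold change of 0.02 (SE 0.15, 95% interval -0.28 to 0.32) whose sign turned with library totals alone or with scaling to epithelial markers. An exon of the antisense gene Gm15592 overlaps Cftr, and whether the counting used strand is not given in the sources used here.

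Slc12a2 (chromosome 18, 57878678 to 57946821, plus strand) encodes the basolateral sodium-potassium-chloride cotransporter that loads cells with the chloride CFTR releases, and was the single member with a lower mean in dIEC. It measured 87.1, 109, 102, 129 and 87.5 CPM in dIEC replicates 1, 3, 5, 6 and 11, against 112, 124 and 134 CPM as the lowest, median and highest in WT. In 4 of the 5 dIEC libraries the level was below every WT library, and dIEC replicate 6, the library with the least Guca2b of its group, was the exception. The means were 103 ± 17.5 CPM in dIEC and 124 ± 8.86 CPM in WT (log2 fold change -0.27, SE 0.12). Summed markers of crypt and cycling cells, where this cotransporter is mostly made, ran from 82.7 to 284 CPM in dIEC and from 216 to 277 CPM in WT, with all 10 log2 fold changes of that list below 0. Their part in the Slc12a2 values was not tested.

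The absorptive transporters had higher means in dIEC, with wide spreads. Slc26a3 (chromosome 12, 31390871 to 31473917, plus strand), which exchanges luminal chloride for bicarbonate, measured 75.3, 25.7, 36.9, 22.4 and 54.0 CPM in dIEC replicates 1, 3, 5, 6 and 11, against 14.8, 23.3 and 38.4 CPM as the lowest, median and highest in WT. Replicates 1 and 11 of dIEC, the same libraries that were highest in both peptides, were above every WT library, and the log2 fold change was 0.75 (SE 0.33), and 0.45 without dIEC replicate 1.

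Slc9a3 (chromosome 13, 74121457 to 74169442, plus strand), the sodium-proton exchanger that takes up much of the luminal sodium in the ileum, was the most variable member. It measured 104, 47.7, 36.7, 25.4 and 25.0 CPM in dIEC replicates 1, 3, 5, 6 and 11, and 12.1, 10.1, 10.5, 28.8, 59.6 and 14.6 CPM in WT replicates 2, 4, 7, 8, 9 and 12. Every dIEC library was above 4 of the 6 WT libraries, but WT replicates 8 and 9 lay among the dIEC values. The log2 fold change of 1.07 had an SE of 0.55, and it was 0.57 without dIEC replicate 1 and 1.66 without WT replicate 9.

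Car4 (chromosome 11, 84957786 to 84966044, plus strand), a carbonic anhydrase anchored to the outer face of the brush border, measured 122, 87.8, 79.0, 44.4 and 96.2 CPM in dIEC replicates 1, 3, 5, 6 and 11, and 26.7, 43.3, 28.7, 90.7, 86.2 and 33.6 CPM in WT replicates 2, 4, 7, 8, 9 and 12. As for Slc9a3, all dIEC libraries lay above 4 WT libraries and WT replicates 8 and 9 were the exceptions. The log2 fold change was 0.73 (SE 0.37).

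By edgeR's quasi-likelihood test, adjusted over all 15911 genes, 0 of the 9 members passed the threshold of 0.05, against 0.00628% of all genes. At an unadjusted p under 0.05 edgeR gave 4 members higher (Guca2b, Gucy2c, Guca2a and Slc26a3) and 1 lower (Slc12a2), where 4.86% of all genes were higher and 5.79% lower. DESeq2 called Guca2b (higher) and no other member, against 0.0691% of all genes, 0.0566% higher and 0.0126% lower. Without WT replicate 8, edgeR called Guca2b and Gucy2c, both higher in dIEC, with log2 fold changes of 1.54 and 0.74, against 2.02% of all genes, 1.35% higher and 0.671% lower. That library had the most enterocyte markers of its group. With any other single library left out edgeR called neither gene. Without dIEC replicate 1 their log2 fold changes were 1.18 and 0.47 (edgeR adjusted p = 0.639 for both). Of the 9 log2 fold changes 8 were above 0, with a median of 0.59, while 48.8% of all genes were above 0, with a median of -0.01. The choice of members used this contrast, so these counts are given without further reading.

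**Figure D3:**
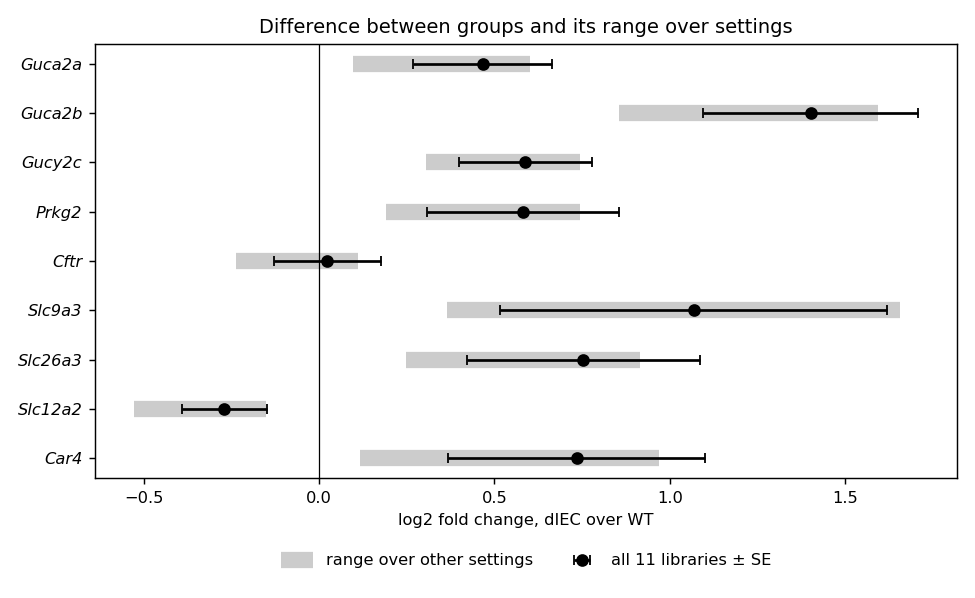
Log2 fold change of each of the 9 genes, dIEC over WT, from all 11 libraries (black, bar: SE), over the range of its values in 21 other settings (grey). Guca2b stays between 0.86 and 1.59, Slc12a2 between -0.53 and -0.15, and the range of Cftr crosses 0.

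Per kilobase of exon, which allows genes to be compared, guanylin was the most abundant of the 9 transcripts in both groups, at 149 ± 45.6 CPM per kb in dIEC and 108 ± 24.2 CPM per kb in WT (SD). In dIEC uroguanylin came next at 57.4 ± 26.7 CPM per kb, then Car4 at 43.6 ± 14.3 and Gucy2c at 30.6 ± 6.15 CPM per kb. In WT these 3 lay closer, with Car4 at 26.2 ± 14.9, Guca2b at 21.7 ± 6.60 and Gucy2c at 20.3 ± 6.00 CPM per kb, and none of these neighbours differed beyond its spread. The mean of each peptide was above that of the receptor in both groups, by the least for Guca2b in WT. The transporters Slc12a2, Slc9a3, Slc26a3 and Cftr and the kinase Prkg2 were lower, from 4.52 to 9.44 CPM per kb in dIEC and from 3.03 to 11.4 CPM per kb in WT. Exon lengths are the union of all annotated exons, which understates genes with long exons that the ileum does not use.

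Within the groups, several members varied together from library to library. After the group mean was subtracted from the log2 CPM of each library, Guca2b and Guca2a correlated at r = 0.98 over the 11 libraries. Among 10220 genes with a mean of at least 5 CPM, 0 were closer to either. The genes nearest to Guca2b after Guca2a were Mep1a (a brush border metalloprotease, r = 0.97), Slc6a4 (the serotonin transporter, 0.97), Lypd8 (a secreted protein that keeps bacteria off the epithelium, 0.96), Wbscr25 (0.96) and Tmem45b (0.95). Those nearest to Guca2a were Slc6a4 (0.98), Adgrg7 (0.97), Ncstn (a subunit of gamma-secretase, 0.97), Mep1a (0.96) and Fuca1 (a lysosomal fucosidase, 0.96). For Slc26a3 they were Gm19918 (0.97), Tceanc2 (0.95), Synj1 (0.95), Tmem82 (0.95) and Retreg3 (0.95), with Guca2b at 0.94. Slc12a2 ran against the peptides, at r = -0.91 with Guca2b. These correlations share the libraries, their depth and their scaling, and are given as a description.

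The same within-group values were set against a score of absorptive enterocytes, the mean log2 CPM of 22 measured markers of villus cells such as Anpep and Apob, none of them a member. Subtracting the group means leaves out the contrast used to choose the members. Other genes were not set against the score, so how many of all genes follow it is not known here. By Pearson's r over the 11 libraries Car4 followed the score most closely (r = 0.88, rho = 0.88), then Guca2a (r = 0.84, rho = 0.90), Gucy2c (r = 0.79, rho = 0.70) and Guca2b (r = 0.77, rho = 0.81), with exact permutation adjusted p = 0.00437, 0.00437, 0.0147 and 0.00712 for r over the 9 members, and 0.00802, 0.00656, 0.0258 and 0.0110 for rho, by which Guca2a came first and Guca2b before Gucy2c. Slc26a3 and Prkg2 had r = 0.67 each (rho 0.73 and 0.68; adjusted exact permutation p = 0.0238 and 0.0251 for r, 0.0258 and 0.0296 for rho), and Slc12a2 went the other way (r = -0.66, rho = -0.77; adjusted exact permutation p = 0.0147 and 0.0111). Slc9a3 was not called by r and was by rho (r = 0.61, rho = 0.66; adjusted exact permutation p = 0.0926 and 0.0323). Cftr showed no relation at this number of libraries (r = -0.08, rho = 0.02; adjusted exact permutation p = 0.831 and 0.968). The unadjusted exact permutation p-values for r ran from 0.000729 for Car4 to 0.831 for Cftr. Much of this rested on WT replicate 8 and dIEC replicate 6, the libraries with the most extreme scores. Without both, r was 0.85 for Car4, 0.60 for Guca2a, 0.57 for Guca2b, 0.45 for Gucy2c, 0.43 for Slc26a3, 0.19 for Prkg2, 0.77 for Slc9a3 and -0.64 for Slc12a2, and 0 of the 9 passed the adjusted exact permutation threshold (lowest adjusted p = 0.115, with Car4, Guca2a and Slc12a2 at or under 0.05 unadjusted).

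**Figure D4:**
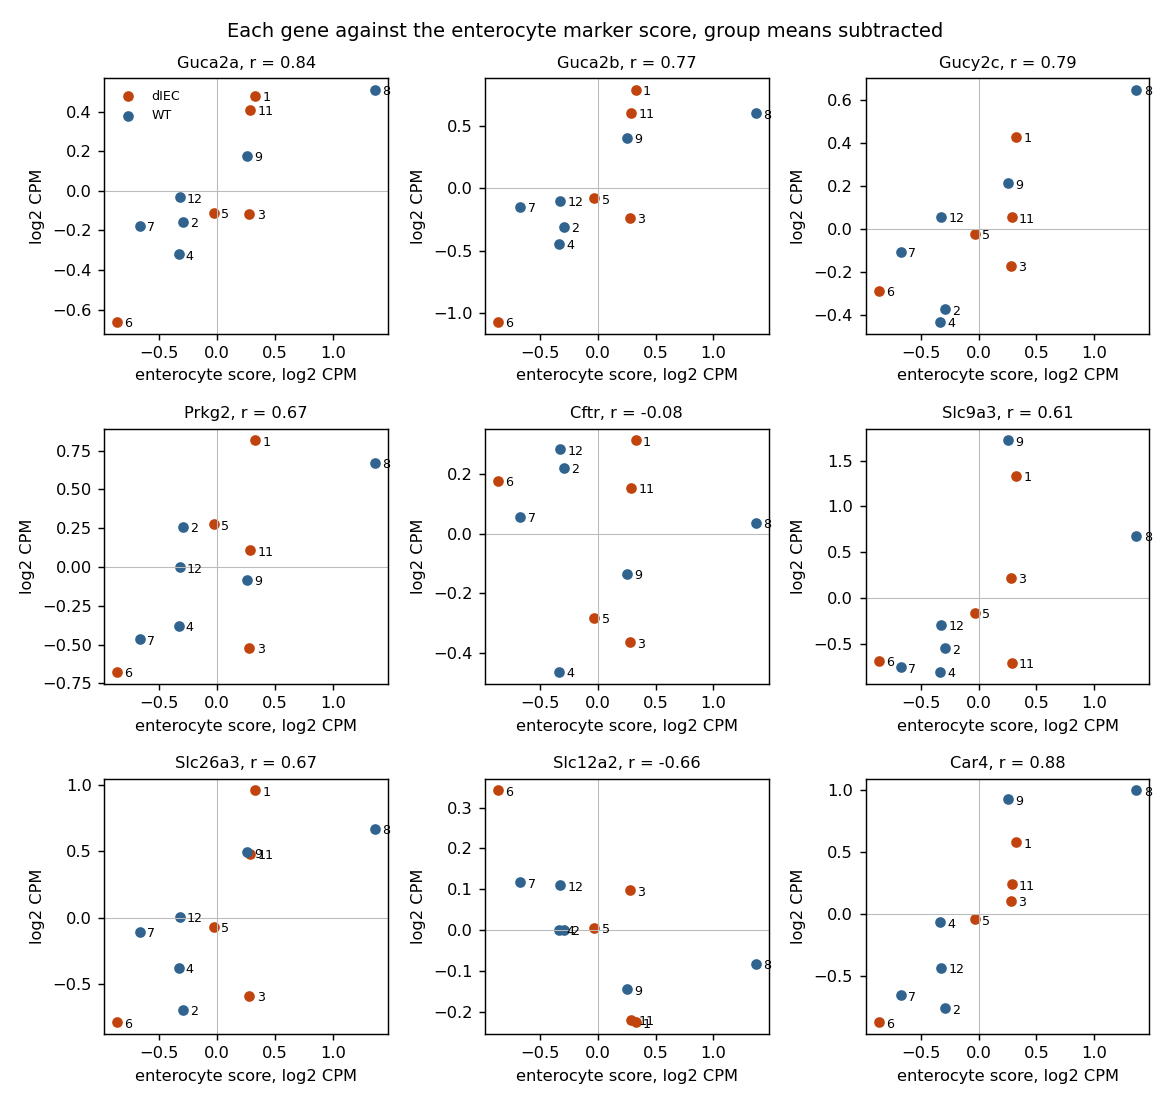
Log2 CPM of each of the 9 genes (vertical) against the absorptive enterocyte score in log2 CPM (horizontal), both with the group mean subtracted, 1 point per library numbered by replicate (dIEC orange, WT blue), with Pearson's r over 11 libraries. Car4 and the peptides increase with the score, Slc12a2 runs against it and Cftr shows no trend. WT replicate 8 and dIEC replicate 6 lie at the ends.

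The enterocyte markers themselves were compared between the groups as well. Their summed level was 8929 ± 2713 CPM in dIEC and 5589 ± 3712 CPM in WT (SD), with WT replicate 8 the highest of all libraries. Of the 22 markers 20 had log2 fold changes above 0 (median 0.58), and by edgeR and by DESeq2 0 passed the threshold, with 6 higher and 0 lower at an unadjusted p under 0.05 by edgeR. Without WT replicate 8 all 22 were above 0 (median 1.02) and edgeR called 8 of them, Anpep and Apob included. With the score as a covariate the log2 fold changes were smaller, at 0.86 (SE 0.27) for Guca2b, 0.31 (SE 0.14) for Gucy2c, 0.10 (SE 0.14) for Guca2a and 0.12 (SE 0.23) for Car4. All 14 markers of epithelium in general, led by Lgals4 and Krt8, were also above 0 (median 0.23, and 0.36 without WT replicate 8), with summed levels of 3051 to 4101 CPM in dIEC and 2515 to 4191 CPM in WT. Scaled to these markers, which moved the median log2 fold change of all genes by -0.27, Guca2b still had a log2 fold change of 1.14 (SE 0.22), Gucy2c 0.37 (SE 0.13) and Guca2a 0.21 (SE 0.14), while Slc12a2 was at -0.53 (SE 0.19) and Cftr at -0.24 (SE 0.18).

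Markers of the deeper layers lay on the other side. Smooth muscle genes such as Myh11 and Mylk summed to 1285 to 3169 CPM in dIEC and 2256 to 4646 CPM in WT, with all 8 log2 fold changes below 0. Fibroblast genes such as Col3a1 and Dcn summed to 276 to 470 CPM in dIEC and 286 to 924 CPM in WT, also with all 8 below 0. Vessel and nerve markers, led by Pecam1 and Kdr, were below 0 in 7 of 7 cases (33.3 to 52.5 CPM in dIEC, 30.6 to 76.1 CPM in WT). With smooth muscle markers as covariate, the log2 fold change of Guca2b was 0.95 (SE 0.19) and that of Slc26a3 0.25 (SE 0.18). Both had an adjusted p of 0.985 by edgeR in that fit. By edgeR and by DESeq2 0 genes of these 3 lists passed the threshold, where edgeR at an unadjusted p under 0.05 gave 1 smooth muscle gene, 7 fibroblast genes and 3 vessel and nerve genes lower. Without WT replicate 8 all stayed below 0. In that fit edgeR called 3 fibroblast genes (Lum, Pdgfra and Dpt), 1 vessel and nerve gene (Flt4) and 0 smooth muscle genes. All were lower in dIEC, against 0.671% of all genes. Of the other cell types, goblet genes (led by Fcgbp and Muc2; 5 of 8 above 0) summed to 5570 to 7508 CPM in dIEC and 4599 to 7662 CPM in WT, and Paneth genes (Lyz1 and Defa24; 4 of 7) to 1396 to 2787 CPM in dIEC and 1318 to 3660 CPM in WT. Enteroendocrine and tuft genes (Dclk1 and Chgb; 1 of 4 measured) summed to 34.2 to 45.6 CPM in dIEC and 32.9 to 48.3 CPM in WT, and white blood cell genes (Jchain and Ptprc; 5 of 8 measured) to 181 to 494 CPM in dIEC and 148 to 438 CPM in WT. In all 4 lists the groups overlapped in summed CPM, and without WT replicate 8 the genes above 0 numbered 5 of 8, 2 of 7, 1 of 4 and 4 of 8 in the same order. At an unadjusted p under 0.05 edgeR gave 2 white blood cell genes higher and 0 lower. They were Cd3e and Cd8a (log2 fold changes 0.87 and 1.15), named after their values were seen. The goblet, Paneth, and enteroendocrine and tuft lists had 0 such genes. What part the cell types of this paragraph have in the members' values was not tested.

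Position along the gut bears on the peptides, since in rodents uroguanylin is mainly a product of the small intestine and guanylin of its distal end and the colon. The defining markers of the labelled tissue were present. Slc10a2, the ileal bile acid transporter, and Fabp6, the ileal bile acid-binding protein, were measured in every library. The 5 ileal genes summed to 406 to 815 CPM in dIEC and 231 to 795 CPM in WT. All 5 had log2 fold changes above 0 (median 0.57), and 4 of 5 without WT replicate 8 (median 0.83). By edgeR and by DESeq2 0 of them passed the threshold, with 2 higher and 0 lower at an unadjusted p under 0.05 by edgeR. Without WT replicate 8 edgeR called 2 of them higher, Slc10a2 and Slc51a, against 1.35% of all genes. Of 6 genes of the proximal small intestine only Slc40a1 and Cybrd1 passed the filter, at log2 fold changes of 0.47 and -0.46 and summed levels of 34.1 to 92.3 CPM in dIEC and 26.7 to 46.1 CPM in WT, the highest being dIEC replicate 1. Of 6 colon genes 4 passed, Mettl7b among them, with 42.7 to 54.4 CPM in dIEC and 33.0 to 64.1 CPM in WT. Whether position had a part in the ratio of the peptides was not tested.

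The rest of the cyclic GMP pathway lay on both sides of 0. Of 15 measured genes 6 lay above 0 and 9 below, with a median of -0.13. The median was -0.02 without WT replicate 2, -0.04 without dIEC replicate 11, -0.07 without dIEC replicate 3, and -0.0042 and -0.010 with the enterocyte and smooth muscle covariates. It was -0.16 without dIEC replicate 6, -0.35 with library totals alone and -0.38 with scaling to epithelial markers. Those scalings moved the median of all genes by -0.21 and -0.27. By edgeR and by DESeq2 0 passed the threshold in either direction, and at an unadjusted p under 0.05 edgeR gave 2 higher and 2 lower. Ezr and Slc9a3r1, which tie the sodium-proton exchanger to the brush border, had 233 ± 61.4 and 138 ± 39.1 CPM in dIEC and 171 ± 98.4 and 103 ± 68.0 CPM in WT (SD). Pde5a and Pde9a, phosphodiesterases that break down cyclic GMP, had 91.7 ± 15.5 and 75.2 ± 34.1 CPM in dIEC and 101 ± 8.36 and 47.8 ± 9.98 CPM in WT. The highest of the list was the scaffold gene Pdzk1 (log2 fold change 0.86, SE 0.36), and the lowest Gucy1b1, a chain of the soluble guanylate cyclase found in muscle (-0.65, SE 0.24), both named after their values were seen. Without WT replicate 8 edgeR called Ezr and Slc9a3r1, at log2 fold changes of 0.83 and 0.86.

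Other genes of anion secretion were split, with 4 of 10 above 0 and a median of -0.12, which was 0.02 without dIEC replicate 1 and -0.041 and -0.0061 with the enterocyte and smooth muscle covariates. With library totals alone it was -0.32, and with scaling to epithelial markers -0.38. By edgeR and by DESeq2 0 passed the threshold, and at an unadjusted p under 0.05 edgeR gave 1 higher and 1 lower. The basolateral bicarbonate importer Slc4a4 had 94.8 ± 21.5 CPM in dIEC and 83.7 ± 18.9 CPM in WT, and the apical exchanger Slc26a6 had 75.5 ± 9.29 CPM in dIEC and 53.4 ± 21.9 CPM in WT. The exchanger Slc4a2 had 42.6 ± 11.8 CPM in dIEC and 47.8 ± 6.09 CPM in WT, and the chloride channel gene Clcn2 had 42.4 ± 8.37 CPM in dIEC and 35.9 ± 7.02 CPM in WT. Slc26a6 passed edgeR without WT replicate 8 (log2 fold change 0.73). The calcium-activated chloride channel gene Ano1 lay lowest, at -0.43 (SE 0.21), and was named after its value was seen.

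Sodium and water absorption genes were more often above 0, 10 of 13 with a median of 0.17, which was below 0 with library totals alone (-0.03), scaling to epithelial markers (-0.09) or the enterocyte covariate (-0.03), and 0.30 without WT replicate 8 or without dIEC replicate 6. By edgeR and by DESeq2 0 passed the threshold, and at an unadjusted p under 0.05 edgeR gave 1 higher and 0 lower. Atp1b1, a chain of the sodium pump, had 337 ± 48.9 CPM in dIEC and 252.5 ± 91.7 CPM in WT. The sodium-glucose transporter Slc5a1 had 249.8 ± 59.6 CPM in dIEC and 150.2 ± 122 CPM in WT, and the amino acid transporter Slc6a19 had 134 ± 54.7 CPM in dIEC and 89.3 ± 82.9 CPM in WT. Without WT replicate 8 edgeR called Atp1b1 and Slc5a1, among others, at log2 fold changes of 0.63 and 1.31.

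Other carbonic anhydrases lay on both sides of 0. Of 8 measured 4 lay above 0 with a median of -0.12, which was -0.24 without dIEC replicate 1. The median was -0.34 with library totals alone and -0.39 with scaling to epithelial markers. By edgeR and by DESeq2 0 passed the threshold, and at an unadjusted p under 0.05 edgeR gave 0 higher and 1 lower. Car3 had 15.5 ± 14.5 CPM in dIEC and 24.8 ± 22.5 CPM in WT, and Car9 had 14.5 ± 2.72 CPM in dIEC and 17.3 ± 2.00 CPM in WT. Car8 had 11.4 ± 2.31 CPM in dIEC and 14.1 ± 3.38 CPM in WT, and Car13 had 10.9 ± 3.76 CPM in dIEC and 9.65 ± 2.74 CPM in WT. A last list held 15 measured genes that act on gut ion transport: receptors, kinases, the peptide genes Vip and Pyy, and an adenylate cyclase. Of these 7 were above 0 with a median of -0.01, which lay on either side of 0, from -0.08 to 0.05, with a library left out. With library totals alone that median was -0.25, and with scaling to epithelial markers -0.29. By edgeR and by DESeq2 0 passed the threshold, and at an unadjusted p under 0.05 edgeR gave 1 higher and 0 lower. Wnk1 and Adcy6, a kinase of ion balance and an adenylate cyclase, had 121 ± 3.03 and 93.1 ± 5.64 CPM in dIEC and 129.7 ± 10.8 and 96.4 ± 10.5 CPM in WT. Vipr1, the receptor for the secretory neuropeptide VIP, had 74.9 ± 19.9 CPM in dIEC and 54.3 ± 11.7 CPM in WT, and Sgk1, a kinase that promotes sodium uptake, had 54.2 ± 52.8 CPM in dIEC and 26.7 ± 13.9 CPM in WT. Without WT replicate 8 edgeR called 1 gene of these 2 lists, the nucleotide receptor gene P2ry2 (log2 fold change 1.08).

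**Figure D5:**
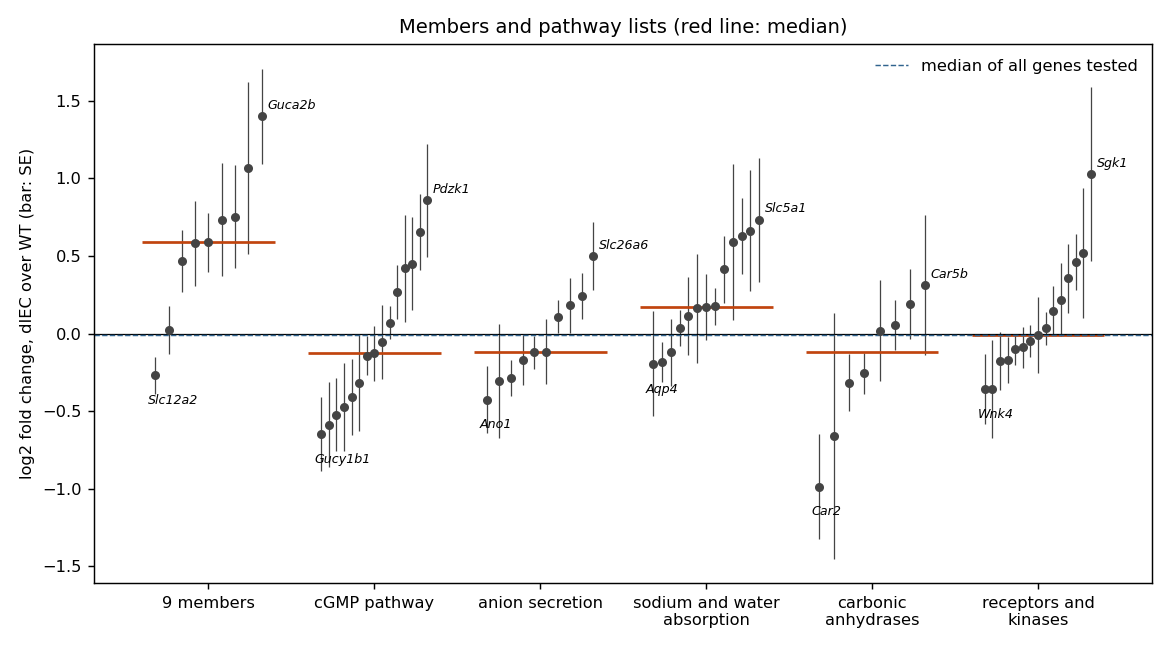
Log2 fold change, dIEC over WT, of the 9 members and of each measured gene of 5 lists of related genes (points, bar: SE), ordered within each list, with the list median in red and the median of all genes tested dashed. The highest and lowest gene of each list are named. The list marked receptors and kinases also holds peptide genes and an adenylate cyclase. The members have a median of 0.59, and the list medians lie between -0.13 and 0.17.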

How the data were processed

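Distal ileum RNA was extracted with Trizol and Zymo Direct-zol kits and made into directional NEBNext Ultra libraries, per the labels' protocols. Reads had been aligned to mm10 with TopHat2, per the submitters' processing notes. What counted them, with which annotation and use of strand, and how it treated multiply mapped reads is not given in the sources used here. Deposited values are raw whole-number counts per gene, which the authors had not scaled. Of 31169 rows 1 named no gene and was dropped, with 0.0078 to 0.0147% of the counts. GENCODE vM21 (GRCm38), the source of coordinates and exon lengths, held 99.2% of the symbols. Groups and replicate numbers come from the sample labels, since the series' design text gives Villin:Cre- to both groups.

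Counts were analysed in R 4.3.3 with edgeR 4.0.16 (filterByExpr, TMM, robust quasi-likelihood F test, Benjamini-Hochberg, threshold 0.05). Alternatives were DESeq2 1.42.0, limma 3.58.1 (voom), other scalings and filters, marker scores as covariates, and leaving out each library in turn. Fold changes are log2, dIEC over WT, and the SE of each was taken from its F value. Scores and correlations use log2 CPM with a prior count of 2, and correlation permutations exchange libraries within a group (86400 in all). The fits were tested on simulated data. The members and lists were chosen with earlier results of these data known. The text names the members, H2-Ab1, in each pathway list the genes past the threshold and the 4 with the highest mean CPM, in each marker list the 2 highest, and the 5 genes closest to Guca2b, Guca2a and Slc26a3. Other names are said to have been chosen after their values were seen, or were called without WT replicate 8. A few genes that this rule names are not reported here.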

Additional observations from a re-analysis of the deposited data

Results flagged for a closer look

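The CPM of the 9 members and H2-Ab1, the 13 marker lists (as mean log2 CPM and as summed CPM) and the 9 count ratios between members were searched for a library far from the rest of its group, in 90 groups of values. Of these 8 held one, where chance flags about 1 in 20 groups, and many of the measures share genes. Slc9a3 in dIEC replicate 1 was at 103.9 CPM, where the other dIEC libraries had 25.0 to 47.7 CPM. In that library the ratio of Slc9a3 to Slc12a2 counts was 1.19, against 0.196 to 0.438 in the other dIEC libraries. In WT replicate 9 this ratio was 0.532, with 0.0779 to 0.246 in the rest of WT, and the ratio of Slc9a3 to Slc26a3 was 1.76, against 0.468 to 0.819. The proximal markers Slc40a1 and Cybrd1 summed to 92.3 CPM in dIEC replicate 1, against 34.1 to 35.6 CPM in the other dIEC libraries. In WT replicate 8, markers of epithelium summed to 4191 CPM, against 2515 to 3136 CPM in the other WT libraries, absorptive enterocyte markers to 12854 CPM, against 3135 to 6173 CPM, and colon markers to 64.1 CPM, against 33.0 to 43.2 CPM. As mean log2 CPM, 0 of the marker lists had such a library. Replicate 1 had the highest dIEC levels of all the members but Slc12a2, of which it had the lowest.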

How the results depend on the processing

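Over 21 other settings the signs of 8 members held: Slc12a2 below 0 and Guca2a, Guca2b, Gucy2c, Prkg2, Slc9a3, Slc26a3 and Car4 above 0. Cftr was below 0 with library totals alone (-0.19), scaling to epithelial markers (-0.24) or the smooth muscle covariate (-0.088), and between -0.060 and 0.11 with a library left out: below 0 without dIEC replicates 1, 6 or 11 and without WT replicates 4 or 9. The members above 0 numbered 7 to 8 and their median was 0.45 to 0.75 with a library left out. With the enterocyte covariate the median was 0.19. Over all genes edgeR called 1, against 2 with library totals alone, 11 by DESeq2 and 1 to 319 with a library left out, the highest without WT replicate 8. The adjusted p of Guca2b ran from 0.0135 (DESeq2) to 0.9996 (enterocyte covariate). The relation to the enterocyte score held for 7 of 9 members, for 4 with library totals alone, for 2 with scaling to epithelial markers, and for 3 to 8 with a library left out, with 3 without dIEC replicate 6 and 4 without WT replicate 8. The share of all genes that followed the score was not computed, so these counts set the members apart from no other genes. The difference of H2-Ab1 lay between -64.0 and -51.2 CPM with a library left out. Library totals alone moved the median of all genes by -0.21, and scaling to epithelial markers by -0.27. The cause of these shifts was not tested. No paired analysis was possible because the groups share no replicate number. Genes under the low-count filter were not tested, Aqp8 and Car1 among them, so the counts of the lists do not cover them.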
